A study of Homo sapiens with 2 samples.

Results

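The genes described here are the human genes of DNA replication origins and forks, 53 gene symbols covering the proteins that mark an origin, load and activate the helicase, and copy the DNA behind it. They were chosen by name: each non-control probe whose gene name equals a listed symbol was taken, which gave 71 probes for the 53 genes, among 43317 gene names with a probe on the array. All 53 had at least 1 probe. No measured value entered the choice by symbol, although the list was drawn up with earlier results of these data known.

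The RNA came from Ca9-22, an established oral squamous cell carcinoma (OSCC) line, and the study asked what forced expression of DLEU1, a long noncoding RNA gene, does to gene expression in these cells. In the DLEU1 group the cells were infected with a lentivirus carrying full-length DLEU1 cDNA, cloned from the OSCC line KON. The control group received the same lentiviral backbone without an insert, and both groups were then selected for 2 weeks with blasticidin, whose dose is labelled as 6 mg/ml. Each group was 1 culture measured on 1 Agilent single-colour array from 100 ng of RNA, so no difference below has a replicate, a p-value or a replicate error. The brightest of the 3 DLEU1 probes went from a log2 level of 3.17 on the control array to 5.91 on the DLEU1 array, a difference of 2.74, and the 2 other DLEU1 probes were 0.85 and 0.54 higher.

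Before a cell divides, the origin recognition complex (ORC) sits on DNA and, with CDC6 and CDT1, loads the ring-shaped MCM2-7 helicase, a step called licensing. Kinases and loading factors then add CDC45 and GINS to the ring, which turns it into the active helicase, and the polymerases, the sliding clamp PCNA and its loader follow the opened fork. Many of these genes are textbook targets of the E2F transcription factors, which switch them on as cells enter S phase.

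The promoters of several of these genes are shown first, since a group that moved together can be read beside the sequence at its transcription starts. RefSeq promoter windows (GRCh38.p14), each running from 250 bases before a transcription start to 50 bases after it, were found for 45 of the 53 genes, 11 of which had several windows. No window was used for MCM4, MCM5, GINS4, RECQL4, POLD3, RPA2, RPA3 or DNA2. The windows were searched on both strands for exact E2F sites (TTTCCCGC, TTTCGCGC, TTTGCCGC or TTTGGCGC). In the 6 windows below, written 5′ to 3′ on the strand of the gene, capitals mark the E2F matches and everything else is in lower case. MCM6 (chr2:135876394-135876693, minus strand), MCM3 (chr6:52284693-52284992, minus strand), CDT1 (chr16:88803539-88803838, plus strand) and CDC6 (chr17:40287629-40287928, plus strand) are shown because they hold matches. MCM10 (chr10:13161308-13161607, plus strand) and ORC2 (chr2:200963611-200963910, minus strand) hold none, and among genes with 1 window they had the largest and the smallest difference.
MCM6: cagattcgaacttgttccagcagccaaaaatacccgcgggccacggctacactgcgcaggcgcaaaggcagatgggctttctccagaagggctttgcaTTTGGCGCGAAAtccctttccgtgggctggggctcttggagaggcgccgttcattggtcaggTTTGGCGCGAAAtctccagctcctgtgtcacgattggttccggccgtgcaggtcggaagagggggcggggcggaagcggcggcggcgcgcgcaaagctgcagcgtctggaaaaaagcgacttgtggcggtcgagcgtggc
MCM3: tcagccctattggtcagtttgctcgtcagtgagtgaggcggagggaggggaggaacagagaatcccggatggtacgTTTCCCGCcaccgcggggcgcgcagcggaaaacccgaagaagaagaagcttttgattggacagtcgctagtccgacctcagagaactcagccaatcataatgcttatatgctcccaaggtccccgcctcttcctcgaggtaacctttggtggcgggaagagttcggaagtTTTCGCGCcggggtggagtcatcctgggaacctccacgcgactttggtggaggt
CDT1: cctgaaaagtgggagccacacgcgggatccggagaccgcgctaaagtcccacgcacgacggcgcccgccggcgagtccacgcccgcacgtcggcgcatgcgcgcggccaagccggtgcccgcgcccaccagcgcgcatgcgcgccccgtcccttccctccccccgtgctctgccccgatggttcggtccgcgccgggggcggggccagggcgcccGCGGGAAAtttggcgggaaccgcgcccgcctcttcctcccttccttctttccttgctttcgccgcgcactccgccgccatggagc
CDC6: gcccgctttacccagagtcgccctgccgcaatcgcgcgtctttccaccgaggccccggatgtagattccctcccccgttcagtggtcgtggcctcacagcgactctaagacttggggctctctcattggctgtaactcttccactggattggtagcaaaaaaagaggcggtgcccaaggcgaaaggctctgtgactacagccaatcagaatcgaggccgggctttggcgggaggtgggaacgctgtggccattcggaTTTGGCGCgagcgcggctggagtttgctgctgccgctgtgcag
MCM10: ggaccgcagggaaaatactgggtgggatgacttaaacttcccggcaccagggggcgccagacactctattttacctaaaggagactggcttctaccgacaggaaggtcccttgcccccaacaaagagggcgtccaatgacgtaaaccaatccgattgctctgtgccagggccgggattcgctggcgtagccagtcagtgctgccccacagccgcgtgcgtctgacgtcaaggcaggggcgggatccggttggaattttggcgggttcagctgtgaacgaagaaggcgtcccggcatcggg
ORC2: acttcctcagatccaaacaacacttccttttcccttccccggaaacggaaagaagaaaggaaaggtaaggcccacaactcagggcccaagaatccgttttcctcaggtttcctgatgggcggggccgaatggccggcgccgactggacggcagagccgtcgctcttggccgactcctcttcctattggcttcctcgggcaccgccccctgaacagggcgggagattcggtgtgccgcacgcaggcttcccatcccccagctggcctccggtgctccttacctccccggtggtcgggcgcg

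A gene was counted as holding a motif when any of its windows did. An E2F match was present in 23 of the 45 genes (51.1%). The share was 660 of 10799 genes that had a window and were detected on both arrays (6.11%). Over all 27305 genes in the promoter table it was 1090 (3.99%). With the first listed window alone an E2F match was present in 20 of the 45 genes. In MCM6 the matches formed 2 pairs of overlapping sites, read on opposite strands, which began 152 and 148 bases and then 90 and 86 bases before the start. MCM2 held such a pair 2 and 6 bases after the start, and MCM3 had matches 174 and 4 bases before it. The CDT1 match began 35 bases before the start and the CDC6 match 7 bases after it. In MCM7, CDC7, PCNA, LIG1 and CLSPN, 1 match shared bases with another of the motifs searched. The GC box (GGGCGG) was in 36 of 45 genes (80.0%) against 73.0% of the 10799 detected genes with a window. The CCAAT box (CCAAT) was in 26 (57.8%) against 42.4%. The cell cycle homology region (CHR, TTTGAA or TTCGAA) was in 3 (6.67%) against 15.6%. A match is a string of letters in these windows and does not show that a factor was bound.

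Arrays of this kind carry probes of up to 60 bases, and a few probes of these genes lay across an exon junction, so that they read spliced RNA. Their sequences are given because they are the molecules behind the values of MCM5, CDC45, RFC4 and PRIM1. Positions are those of the array files (hg19), and each span exceeds the 60 bases of its probe. The MCM5 probe lay at chr22:35819307-35820178 on the plus strand and the CDC45 probe at chr22:19506385-19508015 on the plus strand. The RFC4 probe lay at chr3:186508001-186508130 and the PRIM1 probe at chr12:57132284-57133111, both on the minus strand.
MCM5: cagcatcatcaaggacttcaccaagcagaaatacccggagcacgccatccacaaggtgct
CDC45: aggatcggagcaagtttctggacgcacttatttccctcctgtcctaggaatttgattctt
RFC4: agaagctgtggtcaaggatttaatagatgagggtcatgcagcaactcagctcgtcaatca
PRIM1: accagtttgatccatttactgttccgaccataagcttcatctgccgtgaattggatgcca

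The replication genes were lower with the DLEU1 vector at every step, from origin recognition to the joining of Okazaki fragments. Of the 53 genes, 51 were detected on both arrays and all 51 were lower with DLEU1. A level here is the log2 signal minus the 75th percentile of its array, a difference is the DLEU1 level minus the control level, and a gene is read from its brightest probe detected on both arrays. The median difference was -2.16, which is 4.48-fold lower, the middle 50% of the genes lay between -2.67 and -1.52, and the whole group ran from -3.76 for CDC45 to -0.36 for ORC4. Over all 20246 genes detected on both arrays the median was -0.07. In RNA from whole cultures, fewer cells in S phase and less RNA per cell cannot be told apart.

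At least 2-fold lower were 44 of the 51 genes (86.3%), against 9.78% of all genes. With the arrays set equal on their spike-in probes the count was 50, against 24.1% of all genes. None was at least 2-fold higher, against 9.18% of all genes. At least 4-fold lower were 28 (54.9%), against 1.92%. The 202 genes with the lowest differences of all, the lowest 1%, included 17 replication genes. CLSPN and TIMELESS were detected with the control vector only and are described at the end. The remaining 7 genes, ORC2, ORC4, ORC5, GINS3, POLE3, RPA1 and RPA2, were lower by less than 2-fold.

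**Figure D1:**
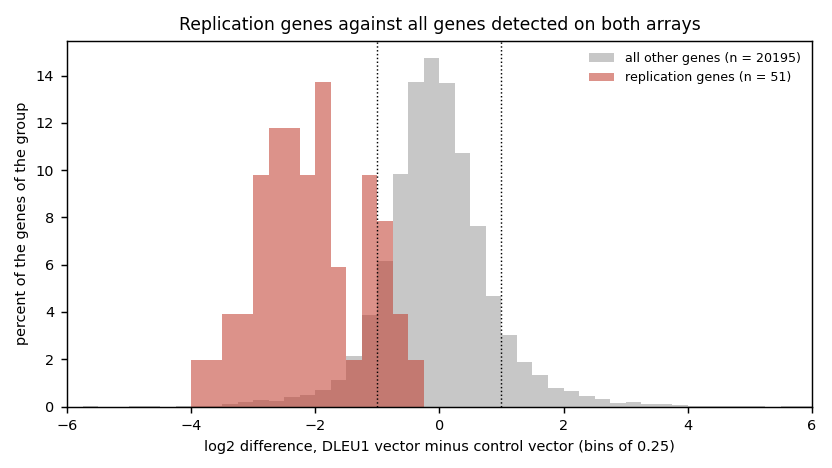
Histogram of the log2 difference (DLEU1 vector minus control vector, bins of 0.25) as a percent of the genes in each group, for the 51 replication genes and for all other genes detected on both arrays. Dotted lines mark 2-fold; the replication genes lie from -3.76 to -0.36, left of the middle of the other genes.

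2 measures of error were available within the arrays. Spots of the same probe gave differences with an SD of 0.080 (log2; 282 replicated probes), and different probes of the same gene gave an SD of 0.47 (4674 genes), or 0.55 for the genes described here. Neither covers the spread between cultures, so they bound how well these 2 RNA samples were compared and nothing further. Gaps between 2 genes are set below beside 0.47, the SD of 1 probe. A difference of 2 probes spreads more than 1 probe, so multiples of this SD overstate the gaps. The genes set apart within a complex were picked by the values shown. 4 of the genes had a probe printed at 10 spots each, and the levels of the spots did not overlap between the arrays for any of them. ORC6 ran from 2.98 to 3.04 over 10 control spots and from -0.31 to -0.07 over 10 DLEU1 spots. GINS2 ran from 4.67 to 4.81 and from 1.32 to 1.5 over the 8 spots used, PRIM1 from 3.31 to 3.46 and from 0.92 to 1.19 over 9, and WDHD1 from 2.26 to 2.41 and from 0.38 to 0.62 over 8. The narrowest gap, that of WDHD1, was 1.64.

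**Figure D2:**
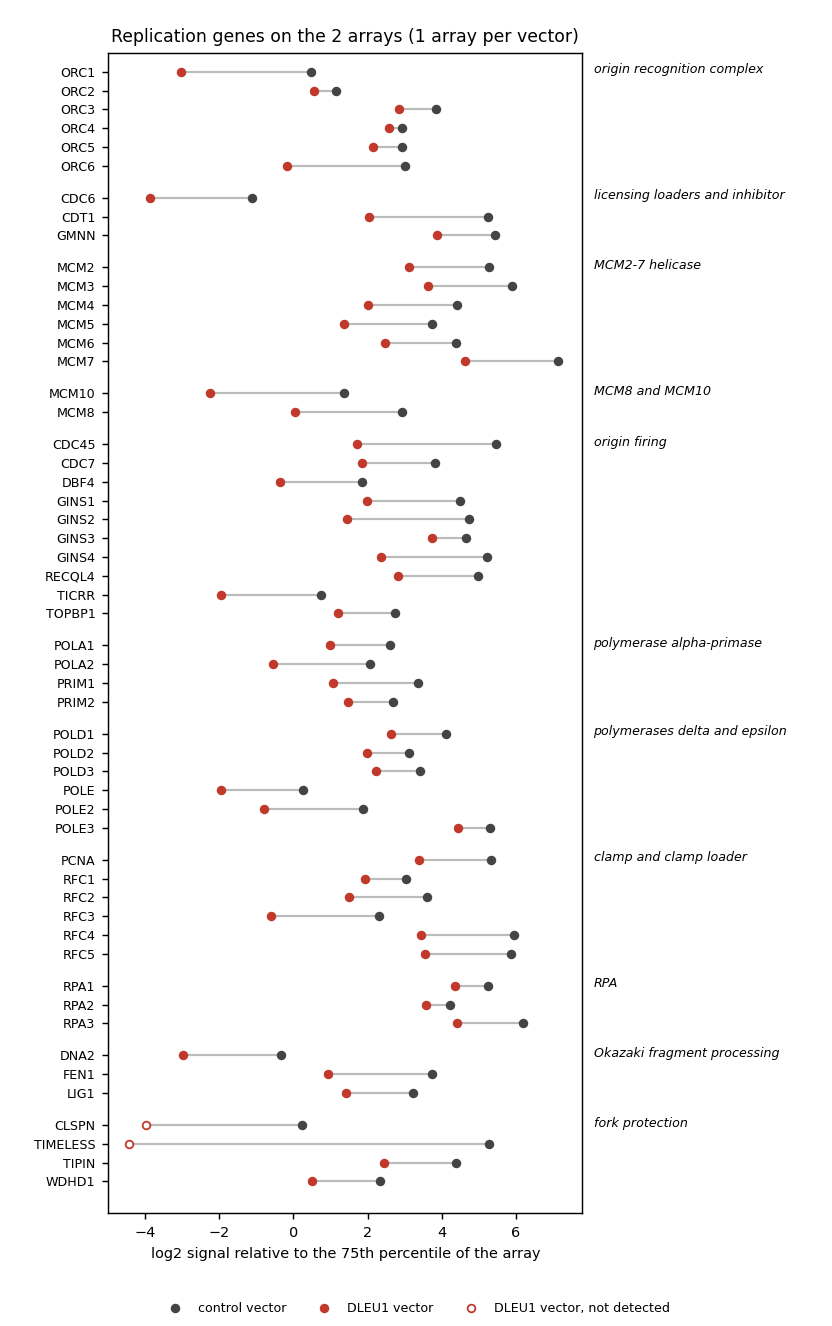
Level of each of the 53 genes (log2 signal relative to the 75th percentile of the array) with the control vector (dark) and the DLEU1 vector (red), grouped by role, 1 array each. Every DLEU1 point lies left of its control point; open points (CLSPN, TIMELESS) were not detected with DLEU1, and TIMELESS lies in a damaged area of that array.

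The subunits of the origin recognition complex differed by unequal amounts, and they are described here in 2 sets that were drawn from these values. ORC1, the subunit that recruits CDC6 and that human cells degrade in S phase, went from 0.47 with the control vector to -3.02 with DLEU1, 11.3-fold lower. Its spot was dim with DLEU1, and normexp, a background correction that adds an offset of 50 to each signal, gave 3.80-fold. ORC6, the smallest subunit and only loosely held in the human complex, went from 3.01 to -0.17, 9.09-fold lower. The 4 subunits that form the stable core differed less. ORC3 went from 3.86 to 2.85 (2.02-fold lower), ORC5 from 2.92 to 2.15 (1.70-fold), ORC2 from 1.14 to 0.55 (1.5-fold) and ORC4 from 2.93 to 2.58 (1.28-fold). ORC6 and ORC3, the nearest of the 2 sets, were 2.17 apart on the log2 scale, which is 4.62 times the SD between probes of a gene. With normexp the nearest genes of the sets were ORC1 and ORC3, and they were 0.95 apart. The second probes of the core subunits gave -0.50 for ORC2, -1.14 for ORC3 and -1.09 for ORC5, and 0.10 for ORC4, whose 2 probes therefore had opposite signs.

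Both licensing loaders and their inhibitor were lower with DLEU1. CDC6, the ATPase that joins ORC at the origin, was dim on both arrays and went from -1.11 to -3.88, 6.84-fold lower, or 2.35-fold with normexp. CDT1, which brings the MCM ring to ORC, went from 5.24 to 2.04, 9.19-fold lower. GMNN encodes geminin, the protein that binds CDT1 and blocks relicensing, and it went from 5.43 to 3.88, 2.92-fold lower. GMNN was thus lower by less than CDT1, but its order against CDC6 turned with the background correction: GMNN differed by -1.55 against -2.77 for CDC6, and with normexp by -1.56 against -1.23.

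The 6 subunits of the MCM2-7 ring were lower by nearly equal amounts. MCM7 had the largest difference, from 7.13 to 4.64 (5.64-fold), and MCM6 the smallest, from 4.40 to 2.48 (3.79-fold). Between them, MCM2 went from 5.28 to 3.12, MCM3 from 5.90 to 3.63, MCM4 from 4.42 to 2.01 and MCM5 from 3.75 to 1.35. The 6 differences had a median of -2.33 and an SD of 0.21, smaller than the 0.47 between probes of a gene, so no order among the subunits can be read. A second probe gave -1.99 for MCM7 and -2.32 for MCM5, both inside the range of the ring. MCM8 and MCM10 lie outside the ring. MCM10, a fork factor that helps activate the loaded helicase, went from 1.37 to -2.26 (12.3-fold lower, or 5.50-fold with normexp). MCM8, which works with MCM9 in recombination repair, went from 2.93 to 0.04 (7.42-fold), while MCM9, which is in the list of other replication genes, was named after its value was seen and differed by -0.24.

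Of the 10 genes of origin firing, 9 passed 2-fold and the median difference was -2.37. CDC45, the helicase cofactor, had the largest difference of the 51 genes, from 5.47 to 1.71, which is 13.6-fold and the 14th lowest difference of the 20246 genes. The GINS complex, its partner on the ring, was not evenly lower. GINS2 went from 4.73 to 1.45 (9.72-fold lower), GINS4 from 5.23 to 2.37 (7.26-fold) and GINS1 from 4.50 to 1.99 (5.72-fold). GINS3 went only from 4.65 to 3.75 (1.87-fold), 1.62 away from the nearest of the other three subunits and 3.44 times the SD between probes.

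The kinase and loading factors of firing sat closer together. CDC7, the kinase that phosphorylates the MCM ring, went from 3.82 to 1.86 (3.89-fold lower), and its activating subunit DBF4 from 1.86 to -0.36 (4.64-fold). TICRR, also called treslin, went from 0.74 to -1.95 (6.46-fold, or 3.61-fold with normexp), and TOPBP1, the scaffold it binds, from 2.75 to 1.19 (2.94-fold). RECQL4, a helicase of the RecQ family that acts at initiation, went from 4.99 to 2.82 (4.48-fold). RECQL4 had 3 probes detected on both arrays, and they did not move alike: 2 gave -2.16 and -2.20, and the other, A_22_P00004694, was 0.21 higher with DLEU1. The mean of the 3 was -1.38.

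**Figure D3:**
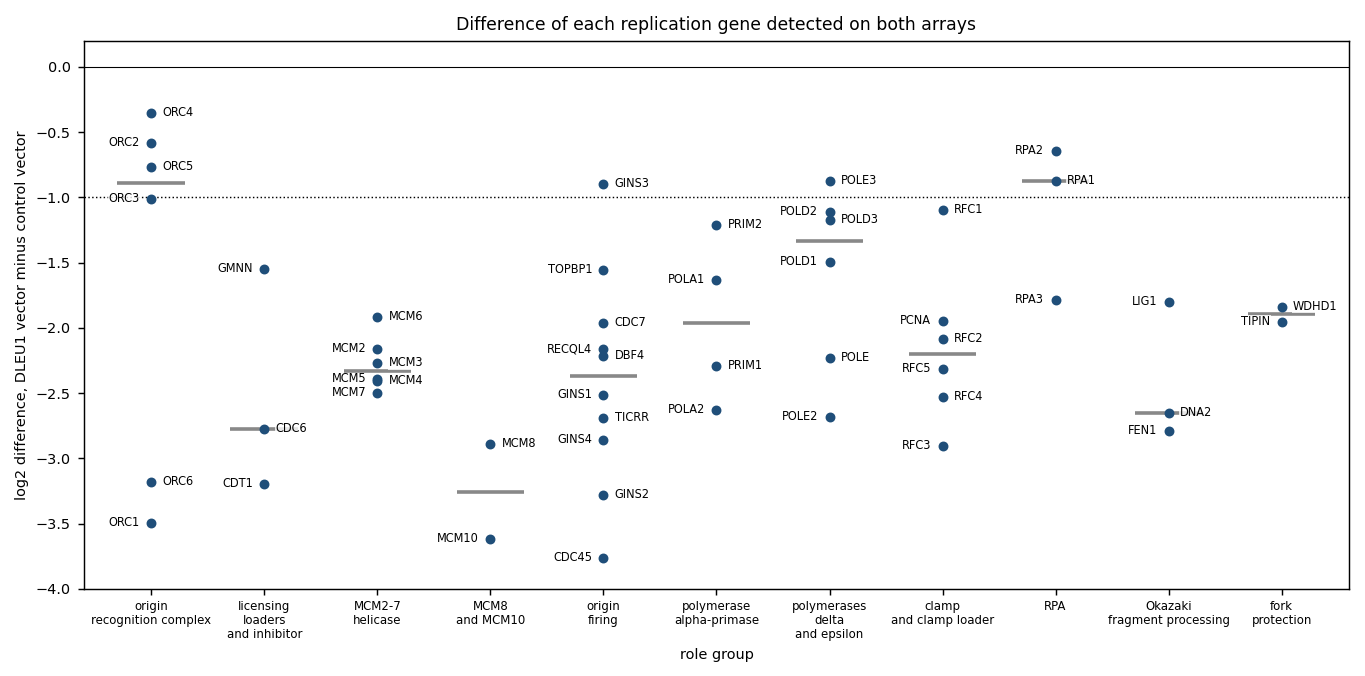
Log2 difference (DLEU1 vector minus control vector) of each of the 51 genes detected on both arrays, in columns by role, with the median of each role as a grey bar and 2-fold lower as a dotted line. The MCM2-7 genes lie close together, from -2.50 to -1.92, whereas ORC spans -3.50 to -0.36 and origin firing -3.76 to -0.90.

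All 4 subunits of polymerase alpha-primase were at least 2-fold lower. In this complex, which starts each new strand with a short RNA-DNA primer, the primase catalytic subunit PRIM1 went from 3.37 to 1.08 (4.90-fold lower) and the accessory subunit POLA2 from 2.08 to -0.55 (6.18-fold). POLA1, the DNA-making subunit, went from 2.62 to 0.98 (3.11-fold) and PRIM2 from 2.68 to 1.47 (2.32-fold). PRIM2 was read by 4 probes, from -1.93 to -1.21, a range that takes in the value of POLA1 but not those of PRIM1 and POLA2.

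Polymerase delta, which copies the lagging strand, is represented by 3 of its subunits, and POLD4 is given with the other replication genes below. POLD1, the catalytic subunit, went from 4.12 to 2.63 (2.82-fold), POLD2 from 3.11 to 2.00 (2.16-fold) and POLD3 from 3.40 to 2.23 (2.26-fold). Polymerase epsilon, which copies the leading strand, was less even: the catalytic subunit POLE went from 0.27 to -1.96 (4.71-fold lower, or 2.85-fold with normexp) and POLE2 from 1.89 to -0.80 (6.44-fold). POLE3, a histone-fold subunit that is also part of a chromatin remodeller, went from 5.31 to 4.44 (1.83-fold), a gap of 1.36 to POLE that was 0.60 with normexp. The role group of both polymerases had a median of -1.34, with 5 of 6 genes at least 2-fold lower.

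PCNA, the ring that tethers polymerases to DNA, went from 5.34 to 3.39 (3.85-fold lower), and its second probe gave -2.12. The 4 small subunits of the clamp loader RFC were lower as well. RFC3 went from 2.32 to -0.59 (7.51-fold), RFC4 from 5.96 to 3.43 (5.77-fold), RFC5 from 5.86 to 3.54 (4.98-fold) and RFC2 from 3.6 to 1.51 (4.26-fold). The small subunits also serve the alternative loaders, while RFC1, the large subunit that makes the loader specific to replication, went from 3.04 to 1.94 (2.14-fold). RFC1 and RFC2 were 0.99 apart, 2.11 times the SD between probes.

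RPA, the complex that coats single-stranded DNA in replication and repair alike, was among the groups with the smallest differences. RPA1, the large subunit, went from 5.24 to 4.36 (1.84-fold lower) and RPA2 from 4.23 to 3.58 (1.56-fold), with second probes at -0.61 and -0.83. RPA3, the smallest subunit, went from 6.20 to 4.42 (3.44-fold) on its only probe. The 3 genes of Okazaki fragment processing were all more than 2-fold lower. FEN1, the flap nuclease, went from 3.73 to 0.94 (6.90-fold), DNA2, the second nuclease, from -0.32 to -2.98 (6.29-fold, or 2.60-fold with normexp) and LIG1, the ligase that seals the fragments, from 3.22 to 1.42 (3.49-fold).

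Of the 4 genes of fork protection, 2 could be measured on both arrays. WDHD1, which links the helicase to polymerase alpha, went from 2.33 to 0.49 (3.58-fold lower) and TIPIN from 4.39 to 2.44 (3.87-fold). CLSPN encodes claspin, which carries the checkpoint signal at stalled forks. CLSPN read 0.22 on the control array. On the DLEU1 array its spot read -3.98 and was not well above background. The ratio of these readings, 18.3-fold, rests on an undetected spot, so it is neither a measured difference nor a lower bound. TIMELESS, the partner of TIPIN, had a control level of 5.27. Its only spot on the DLEU1 array lay in a damaged area in which neighbouring spots were dark together, so its value there is not used. That area held 346 spots, 77 of them darker than any spot of the other array. Of the probes detected on the control array, 58.9% in the area were at least 2-fold lower against 12.2% elsewhere. The area was drawn around spots that were dark with DLEU1, so part of this excess is built in and it is no separate evidence of damage. No other probe of the replication genes lay in the area.

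**Figure D4:**
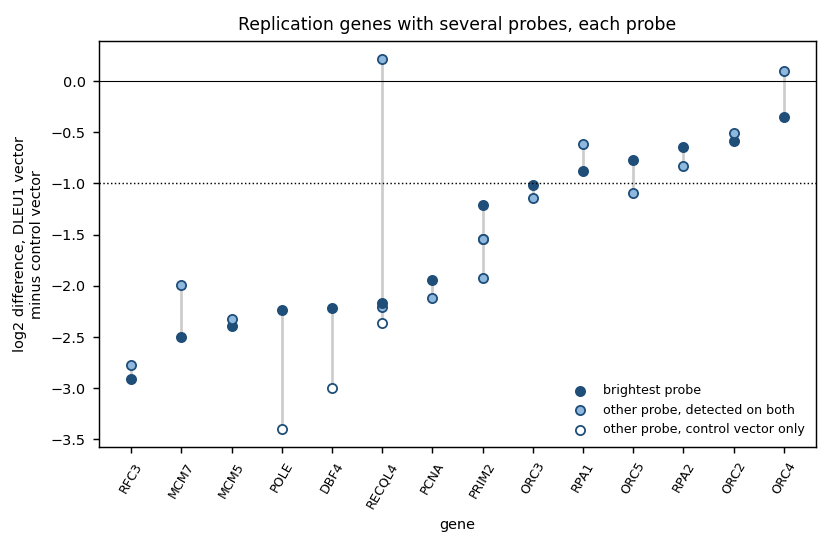
Log2 difference (DLEU1 vector minus control vector) of every probe of the genes with several probes, ordered by the brightest probe; open points were detected with the control vector only. All probes lie below 0 except 1 of RECQL4 (0.21) and 1 of ORC4 (0.10).

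Over all probes, 66 of the 71 were detected on both arrays, and 64 of these were lower with DLEU1. Of the 12 genes with several probes detected on both, 10 were lower by every probe, the exceptions being ORC4 and RECQL4. For the other 39 genes the value rests on 1 probe. Probe length, sequence and target exon differ between genes, so levels were set side by side only within a probe.

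The size of the difference can be set beside the E2F matches shown above. A match was present in 12 of 23 genes that were at least 4-fold lower (52.2%), in 9 of 14 that were 2- to 4-fold lower (64.3%) and in 1 of 6 that were lower by less than 2-fold (16.7%), which was GINS3. The 22 genes with a match and a difference had a median of -2.20, from -3.28 to -0.90, and the 21 without a match had a median of -2.09, from -3.76 to -0.36. The ranges overlap almost wholly. Only the exact strings listed above were searched, so a gene without a match may hold another form of the site. TTTGGCGG, 1 base from a searched string, was not searched. Read on either strand, windows that hold it include those of MCM10, CDC45, TICRR and RFC1, counted without a match. They also include those of CDC6, CDT1 and POLA2, counted with one. The differences of these genes ran from -3.76 for CDC45 to -1.10 for RFC1. CDC45, whose difference was the largest, held no exact match in its windows, and GINS2 and CDT1, both over 9-fold lower, each held a match.

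**Figure D5:**
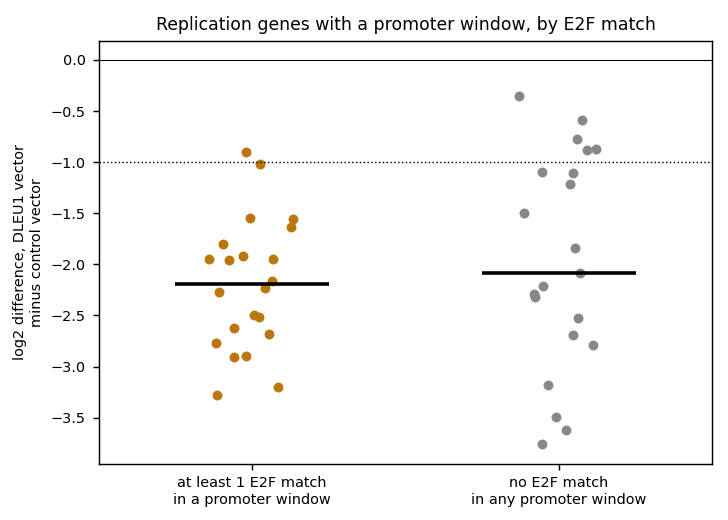
Log2 difference (DLEU1 vector minus control vector) of the 43 replication genes that have both a promoter window and a difference, split by whether any window holds an exact E2F match; bars are medians (-2.20 with, -2.09 without). The 2 sets of points overlap over most of their range.

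Other replication genes, a list of 77 kept apart from the 53, moved the same way but less. Of the 75 with a probe, 74 were detected on both arrays: 62 were lower, 38 at least 2-fold, 3 were at least 2-fold higher, and the median was -1.06. Over all genes, 9.78% were at least 2-fold lower and 9.18% at least 2-fold higher. The counts of the smaller groups that follow are of genes at least 2-fold lower. Histone and chromatin assembly at forks had 10 of 12 genes at least 2-fold lower, from ASF1B, a histone chaperone, at -3.15 to TONSL at -0.07. Topoisomerases and RNase H2 had 5 of 7, from TOP2A at -2.86 to TOP2B, its non-cycling relative, at -0.21. Licensing turnover had 6 of 11, from CCNE2, an E-type cyclin, at -2.73 to DDB1 at 0.25. Among the regulators that bind PCNA it was 5 of 8, with DTL, the CDT1-degrading ligase adaptor, lowest at -3.04. In the alternative clamp loaders it was 2 of 4, from DSCC1 at -3.39 to CHTF8 at 0.07, and ATAD5 was detected with the control vector only.

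In the ATR checkpoint and fork remodelling it was 3 of 12, with a median of -0.59, from BLM, a RecQ helicase, at -3.06 to RAD1 at 0.40. In the translesion polymerases it was 2 of 8, with a median of -0.65, from POLQ at -3.02 to POLI at 0.25. Among the remaining subunits and partners of the 53 genes' own complexes it was 5 of 12, with MTBP, the partner of TICRR, lowest at -2.09. The 3 genes that were at least 2-fold higher were CDKN1A, which encodes the cyclin-dependent kinase inhibitor p21 that also binds PCNA (-1.52 to 1.01), RPA4, a relative of RPA2 (-1.46 to 0.55), and POLD4, the smallest subunit of polymerase delta (4.21 to 5.27). POLD4 therefore moved opposite to POLD1, POLD2 and POLD3 on these arrays.

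Genes of the neighbouring cell cycle steps were read from the same arrays for comparison. The share of all genes at least 2-fold lower, to be set beside their counts, was 9.78%. All 30 mitosis genes were lower with DLEU1, 29 of them at least 2-fold, with a median of -2.66, from SPC25, a kinetochore protein, at -3.31 to BUB3 at -0.11. Of 22 detected G1/S regulators, 18 were lower and 11 passed 2-fold in that direction, with a median difference of -0.96, from E2F1, an activator of replication genes, at -3.56 (3.44 to -0.11) to CDKN1B at 0.53. The 13 housekeeping genes had a median of -0.37, from HPRT1 at -1.38 to YWHAZ at 0.43. The mitosis genes' range, -3.31 to -0.11, lies over most of that of the replication genes.

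The arrays detected similar shares of probes, 47.6% and 48.1% of 58201 with the control and DLEU1 vectors. No probe was saturated, but the DLEU1 array held the damaged area described above. Markers of squamous epithelium were detected for 12 of 12 genes, from KRT17 at 3.09 to EPCAM at -0.78. At least 2-fold higher with DLEU1 were 8 of them, against 9.18% of all genes. Of 16 keratinocyte differentiation genes, 11 were detected on both arrays, all higher, from SPRR3 at 9.88 to KRT10 at 0.53. The others were detected with DLEU1 only (3) or on neither array (2). Of 8 fibroblast markers, 2 were detected on both arrays, COL1A1 (0.47 to 4.47) and PDGFRB (-0.33), 1 with DLEU1 only and 5 on neither. Of 5 endothelial markers, 2 were detected on both, VWF (-2.33 to 1.37) and CDH5 (-0.59), and 3 on neither. Of 5 leukocyte markers with a probe, 4 were detected on both, from CD14 at -1.60 to PTPRC at 0.45, and 1 on neither. These genes moved with the vector beside the replication genes, and their part in the result was not tested.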

How the data were processed

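The authors hybridised Cy3-labelled RNA to Agilent whole-genome arrays, and each deposited scanner file holds spot intensity values that, per the file headers, were extracted with Agilent Feature Extraction 10.7.3.1 (background subtracted; probe positions on hg19). The deposited series values, taken to log2, matched the log2 scanner intensity before any scaling within 0.0072 and served as an alternative. From the intensity, outlier spots and control spots were left out, log2 processed signals minus the 75th percentile of each array were taken, spots of a probe were averaged, and probes well above background on both arrays were kept. A gene is its brightest such probe. All 53 members, DLEU1, the highest and lowest gene of each comparison list, and other replication genes at least 2-fold higher are named. The members and lists were chosen with earlier results of these data known. A difference of 2-fold was called. With 1 array per group no test was possible, and precision is limited by having so few arrays. The damaged area was all spots within 4 rows and 1 column of a spot darker than any on the other array, a window chosen after seeing the data. Python 3.11.15 (numpy 2.4.6, pandas 2.3.3), R 4.3.3 and limma 3.58.1 (normexp with an offset of 50, loess with a span of 0.3) were used. The steps were tested on simulated data. Alternatives covered scaling, background, dim-probe filters, probe choice, the damaged area and thresholds of 1.5- and 3-fold. Counts at 4-fold and values beside normexp were added after seeing the data. Promoter windows are from RefSeq.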

Additional observations from a re-analysis of the deposited data

How the results depend on the processing

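No paired analysis was possible because each group has 1 array. None of the 657 values of single replication genes under the 15 alternatives lay above 0 (range -4.23 to -0.13), nor did any of 143 role medians. Genes at least 2-fold lower numbered from 38 of the 45 left with a signal of at least 100 to 50 of 51 with spike-in scaling. In the setting used, 49 were at least 1.5-fold lower and 36 at least 3-fold. The shares of all genes at these 2 thresholds are not given here. None was at least 1.5-fold higher in the setting used, or 2-fold higher under any alternative. The median difference of the replication genes, -2.16, became -2.28 when array medians were set equal, -2.05 when the scaling percentile used detected probes alone, -1.98 after quantile normalization, -2.63 with spike-in scaling, -1.96 with loess, -1.90 with normexp background and -1.96 with a signal of at least 100, a move in each case of more than the SD between spots of a probe (0.080). Spike-in scaling put 24.1% of all genes at least 2-fold lower and 4.56% higher, in place of 9.78% and 9.18%, and normexp put 5.54% higher. The median of all genes moved by -0.46 with spike-in scaling, -0.11 with equal array medians, and 0.11 both with detected probes alone and without the dim-probe filter. The spike-in probes differed by 0.43 before scaling. ORC3, POLD2 and RFC1 came under 2-fold with some scalings, at -0.84 to -0.90 for ORC3, as far as -0.98 for POLD2 and -0.97 to -0.99 for RFC1, and ORC3 also with normexp, at -0.97. The cause of the scaling moves was not tested. Normexp, whose offset shrinks differences of dim probes, moved 6 genes by over 1.5 times, to -1.93 for ORC1, -1.23 for CDC6, -1.38 for DNA2, -2.46 for MCM10, -1.85 for TICRR and -1.51 for POLE, and the mean over probes moved RECQL4 to -1.38. Genes at least 4-fold lower numbered 28, against 1.92% of all genes, and 22 with normexp, against 1.24%.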
